A study of Caenorhabditis elegans with 7 samples.

Results

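The genes hsp-16.1, hsp-16.2, hsp-16.41 and hsp-16.49 encode small heat shock proteins, and they were measured in DD motor neurons and in all cells of first-stage (L1) larvae of Caenorhabditis elegans. The members are all probe sets whose gene name in the authors' deposited table starts with hsp-16., which gave 4 probe sets for 4 genes, of 222 named probe sets for 201 genes and of 22548 probe sets tested. That table lists only probe sets that the authors had selected as higher in DD neurons on these same arrays. The group differences of the members are therefore given as a description, no test of them is used as evidence, and all 4 had to be higher in DD neurons.

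DD neurons are motor neurons of the ventral nerve cord that release GABA. There were 4 arrays of DD neurons, isolated by fluorescence-activated sorting from the strain CZ8332, which carries the transgene juIs223 with mCherry under the ttr-39 promoter and GFP under the ttx-3 promoter. The ttx-3 promoter is known for its activity in the AIY interneuron, and 1 label of the DD samples names GFP, while the series design gives mCherry for the sort. There were 3 arrays of all L1 cells from the wild-type strain N2. In both groups embryos had hatched overnight in buffer at 20 °C without food, so that all larvae were arrested in growth, and 5 to 10 ng of total RNA was amplified for each array. Strain, reporter and cell type changed together, as sorting may have done, and they cannot be told apart. For the all-cell samples, a dissociation or sorting step is not given in the sources used here.

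Small heat shock proteins bind partly unfolded proteins and hold them in a state from which ATP-dependent chaperones of the Hsp70 type can refold them. The hsp-16 genes are the classic heat-inducible genes of this class in the worm. Under heat and other stresses that unfold proteins, the heat shock factor HSF-1 drives them from short promoters that pairs of neighbouring genes share, and without stress they are nearly silent in most cells. A fluorescent protein under the hsp-16.2 promoter is a common reporter of the heat shock response in living worms.

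In RefSeq (assembly WBcel235), 8 genes carry an hsp-16 symbol, all on chromosome V. The genes hsp-16.2 and hsp-16.41 are direct neighbours there. The genes hsp-16.1, hsp-16.48, hsp-16.49 and hsp-16.11 follow each other in that order in a second cluster, and the protein of hsp-16.49 is annotated in the authors' deposited table as identical to that of hsp-16.48. The other 4 genes, hsp-16.48, hsp-16.11, hsp-16.20 and hsp-16.21, have no named probe set here and were not analysed. The probe sets of hsp-16.2 and hsp-16.41 have the plain Affymetrix suffix. Those of hsp-16.1 and hsp-16.49 have the suffix of probe sets that can match several transcripts, so their signal may include related genes, and their values are uncertain as values of 1 gene.

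All values are log2 expression values made by the authors with RMA, which removes background, puts the arrays on 1 scale and combines the probes of each set into 1 value. The level of a probe set depends on its own probes, so levels are compared between arrays and not between genes. The array medians lay between 5.21 and 5.38. The deposited values carry no detection call, so no level here is known to be above background. In RNA from many cells, fewer cells of a type and less RNA per cell cannot be told apart.

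The largest difference in the family was that of hsp-16.41, the partner of hsp-16.2 in the chromosomal pair. On the 4 DD neuron arrays hsp-16.41 had levels of 7.59, 9.23, 9.18 and 7.85, against 3.90, 4.76 and 2.44 on the 3 all-cell arrays (log2, replicates in order of their numbers). The groups did not overlap, and the lowest DD array lay 2.82 above the highest all-cell array. DD neurons averaged 8.46 ± 0.86 (SD, n = 4) for this gene and all cells 3.70 ± 1.18 (SD, n = 3), so that the difference was 4.76 ± 0.61 SE on the log2 scale, or 27.1-fold. On the DD arrays it ranked at percentiles 81.1 to 92.3 of all probe sets, and on the all-cell arrays at percentiles 29.1, 42.4 and 2.82. With all-cell values this low on the array, its fold is not exact.

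For hsp-16.2, the gene of the common stress reporter, the DD arrays read 9.12, 10.49, 10.52 and 9.79 and the all-cell arrays read 6.41, 8.29 and 4.71. Here too every DD array was above every all-cell array, but the lowest DD array exceeded the highest all-cell array by only 0.82, or 1.77-fold. DD neurons averaged 9.98 ± 0.67 (SD, n = 4) and all cells 6.47 ± 1.79 (SD, n = 3), and the log2 difference was 3.51 ± 0.76 SE, or 11.37-fold. All cells replicate 3 was below the median of its array for hsp-16.2, at percentile 40.9, while all cells replicate 2 was at percentile 85.3.

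The gene hsp-16.49 of the second cluster had levels of 10.997, 11.97, 11.84 and 10.88 in DD neurons, against 9.20, 9.72 and 7.12 in all cells. With averages of 11.42 ± 0.56 (SD, n = 4) for DD neurons and 8.68 ± 1.37 (SD, n = 3) for all cells, it differed by 2.74 ± 0.60 SE on the log2 scale, or 6.69-fold. Another gene of that cluster, hsp-16.1, had levels of 10.96, 11.96, 11.97 and 11.17 in DD neurons, against 9.30, 9.99 and 7.67 in all cells. It averaged 11.52 ± 0.53 (SD, n = 4) for DD neurons and 8.98 ± 1.19 (SD, n = 3) for all cells, with a log2 difference of 2.53 ± 0.53 SE, or 5.79-fold. For both genes the groups did not overlap, with gaps of 1.16 for hsp-16.49 and 0.97 for hsp-16.1 between the lowest DD array and the highest all-cell array. Both lay in the upper part of every array, at percentiles 97.6 to 99.1 in DD neurons and 73.6 to 95.1 in all cells.

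**Figure D1:**
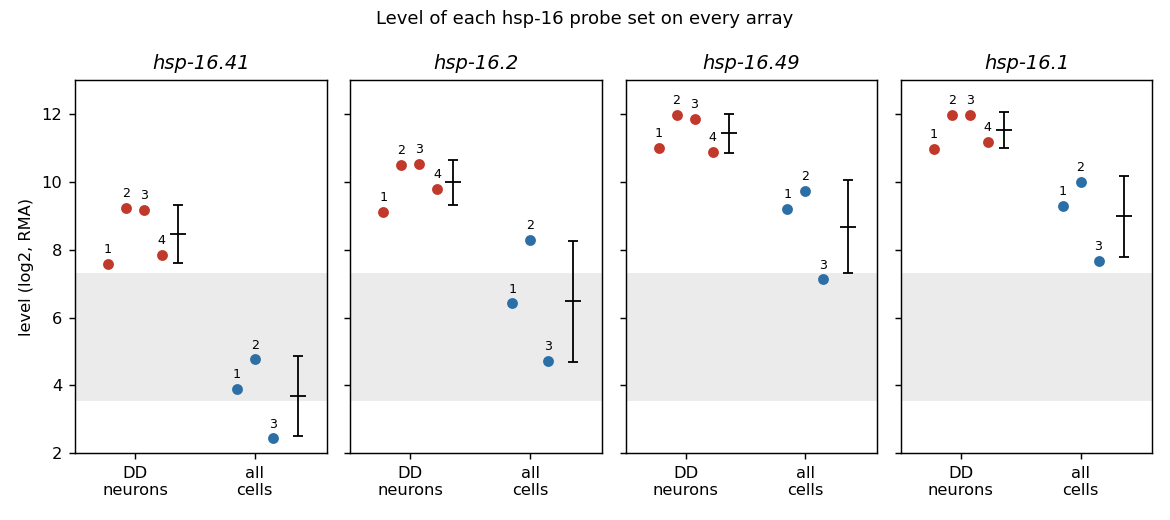
Level (log2, RMA) of each hsp-16 probe set on each array, with replicate numbers beside the points, red for DD neurons and blue for all cells. Black marks give the mean and SD (n = 4 and n = 3), and the grey band runs from the lowest 25th to the highest 75th percentile of the arrays. All DD points of the 4 genes lie above all of their all-cell points, and all cells replicate 3 is the lowest point in each panel.

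Among all 22548 tested probe sets, the 4 differences ranked at places 2, 7, 16 and 21 from the top, for hsp-16.41, hsp-16.2, hsp-16.49 and hsp-16.1 in that order. In the limma fit over all probe sets, with a threshold of 0.05 on the Benjamini-Hochberg adjusted p, 0.191% of probe sets were higher in DD neurons and 0.226% were lower, and 1 of the 4 members, hsp-16.41, was among the higher ones. All 4 members had every DD array above every all-cell array, as had 6.98% of all probe sets, with 6.64% in the opposite order. Nothing is read from these counts, because the members came from a list selected on this contrast. With any of the 7 arrays left out, hsp-16.41 was no longer called.

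The balance of calls over all probe sets depended on scaling. There were 43 higher and 51 lower probe sets on the deposited values, 47 and 28 after centring each array on its median, 43 and 33 after quantile normalization, and 40 and 393 after centring on the 77 array controls. The last of these moved the median difference of all probe sets by -0.36, to -0.30. Under it the members still read 4.40 for hsp-16.41, 3.15 for hsp-16.2, 2.39 for hsp-16.49 and 2.17 for hsp-16.1 higher in DD neurons on the log2 scale.

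The family was uneven between arrays of the same group, above all among the all-cell arrays. For hsp-16.2 the 3 all-cell arrays spanned 3.58 on the log2 scale, or 11.98-fold, which was 102% of its difference between the groups. The spans of hsp-16.49 and hsp-16.1 were 2.60 and 2.32, or 94.7% and 91.8% of their differences, and that of hsp-16.41 was 2.32, or 48.8%. Over the DD arrays the spans were smaller, with 1.64 for hsp-16.41, 1.40 for hsp-16.2, 1.09 for hsp-16.49 and 1.01 for hsp-16.1.

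These spans were large for the array as a whole. The median span over the all-cell arrays was 0.45 for all tested probe sets, 0.69 for the 197 other named genes and 2.46 for the 4 members. The named genes and the members had been selected by the authors on these arrays, and how this selection shaped their spans was not tested. The SD of the members over the all-cell arrays lay at percentiles 98.5 to 99.7 of all probe sets, and their SD over the DD arrays at percentiles 81.3 to 96.4. A span over 2 among the all-cell arrays, a limit chosen after the values were seen, was found for 4 of 4 members and for 2.31% of all probe sets. It was found for 2 of the 197 other named genes, and both belong to the heat shock pathway, the Hsp70-family genes F44E5.4 and F44E5.5. Just under the limit lay C28H8.3 (1.99) and Y53G8AM.5 (1.96), which are not on the heat shock list described below. The heat shock genes dnj-13 (1.96) and C30C11.4 (1.94) lay there too, so wide spans were not confined to heat shock genes.

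**Figure D2:**
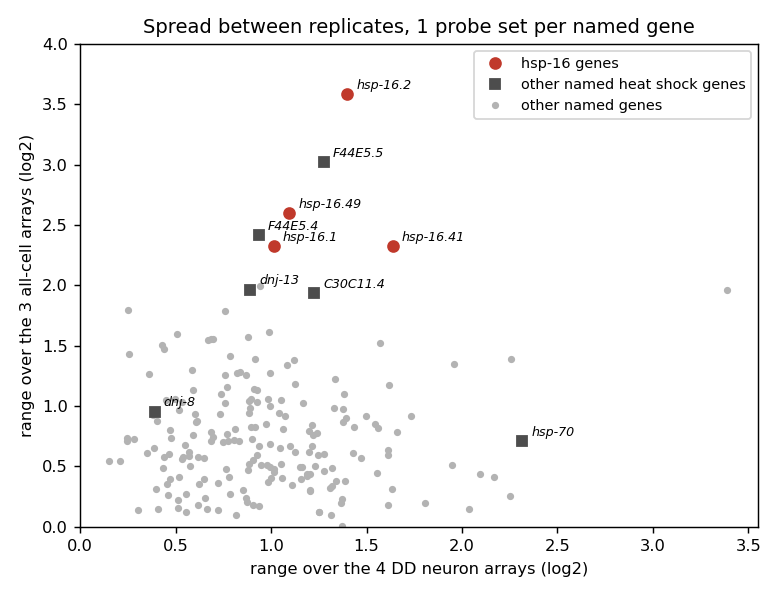
Range of the log2 level over the 4 DD neuron arrays (horizontal) and over the 3 all-cell arrays (vertical), 1 point for each of the 201 named genes, with the hsp-16 genes in red and other named heat shock genes as dark squares. The hsp-16 genes reach 2.32 to 3.58 on the vertical axis, where the median of the 197 other named genes is 0.69.

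Because of this spread, the size of each difference depended in part on single all-cell arrays. Without all cells replicate 3 the log2 differences were 4.13 for hsp-16.41, 2.63 for hsp-16.2, 1.96 for hsp-16.49 and 1.87 for hsp-16.1, or 17.5-fold, 6.17-fold, 3.90-fold and 3.66-fold. Without all cells replicate 2 the difference of hsp-16.2 was 4.42, or 21.4-fold. Leaving out any other array gave 2.38 to 5.05 over the 4 genes. No direction could turn by leaving out an array, because the groups did not overlap.

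The ratio between members on an array was used to order the 4 differences. Compared between the groups, it removes a constant offset of each probe set. It does not remove signal from related genes or effects that change with the level, so the order is one of probe sets. This is a description on the deposited values, and the all-cell values of hsp-16.41 are not known to be above background. The difference of hsp-16.41 exceeded that of hsp-16.1 by 2.23 ± 0.18 SE. On every DD array hsp-16.41 was closer to hsp-16.1 (-3.05 ± 0.34, SD, n = 4) than on any all-cell array (-5.28 ± 0.10, SD, n = 3). It also exceeded its chromosomal partner hsp-16.2, by 1.25 ± 0.41 SE, with the arrays of the groups separated by 0.33. Raising all values below the 25th percentile of their array to that percentile left an excess of 1.83 ± 0.46 SE over hsp-16.1, with the arrays still separated. The excess over hsp-16.2 was then 0.86 ± 0.72 SE with overlapping arrays, so that step in the order depends on the dim all-cell values. The next steps in the order showed overlapping arrays on the deposited values too. The difference of hsp-16.49 was -0.76 ± 0.44 SE relative to that of hsp-16.2. The difference of hsp-16.49 was 0.21 ± 0.15 SE above that of hsp-16.1.

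Within each group the 4 genes varied together from array to array. Relative to the mean of its group, the family averaged -0.68, 0.57, 0.53 and -0.42 on DD replicates 1 to 4, and 0.24, 1.23 and -1.48 on all cells replicates 1 to 3 (log2). For each of the 4 genes DD replicates 2 and 3 were above DD replicates 1 and 4. All cells replicate 2 was the highest and all cells replicate 3 the lowest all-cell array for each of them as well.

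Deviations from the group means, a quantity that the selection by group difference did not fix, had a Pearson correlation of 0.922 to 0.987 between the members over the 7 arrays. The highest value was that of hsp-16.1 with hsp-16.49, whose probe sets may share transcripts. The chromosomal partners hsp-16.2 and hsp-16.41, whose probe sets carry no such mark, had 0.931. The lowest, 0.922, was that of hsp-16.2 with hsp-16.49. Without all cells replicate 3 the values were 0.798 to 0.993, with 0.865 for hsp-16.2 and hsp-16.41. The points share arrays and the authors' normalization, so these correlations describe the 7 arrays and carry no test.

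**Figure D3:**
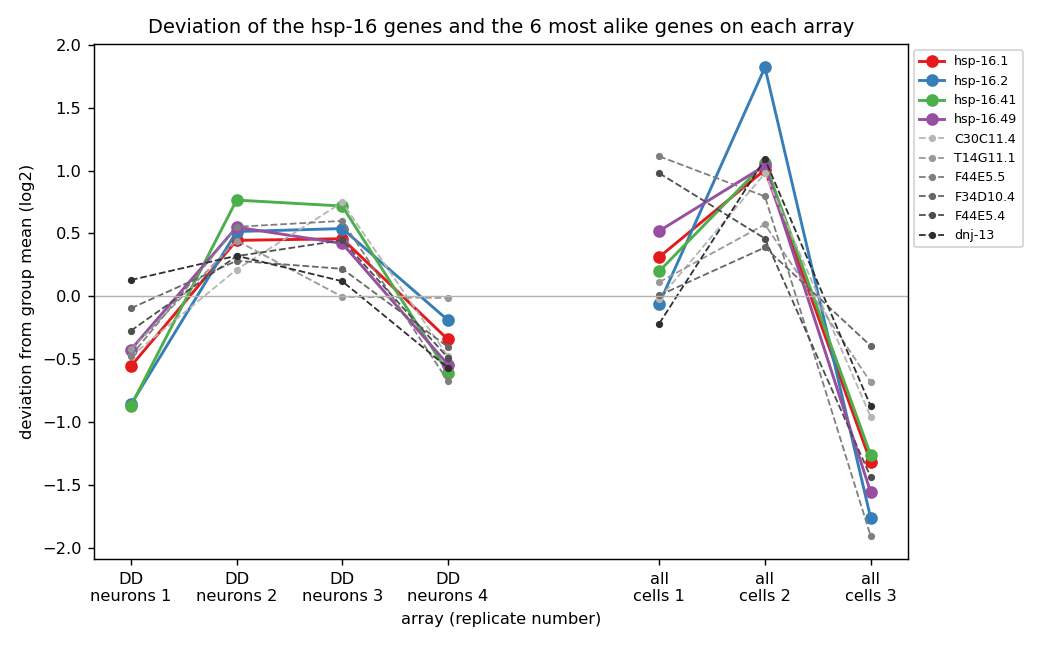
Deviation of the log2 level from the mean of its group on each array, for the 4 hsp-16 genes (solid, coloured) and the 6 other named genes most like them (dashed, grey), where lines only link the points of a gene. The hsp-16 genes lie above 0 on DD replicates 2 and 3 and on all cells replicate 2, and between -1.76 and -1.26 on all cells replicate 3.

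Likeness to the family was measured as the correlation of a gene's deviations with the family's mean deviation over the 7 arrays. Of the 197 other named genes the 6 most alike were C30C11.4 (0.955), T14G11.1 (0.939), F44E5.5 (0.906), F34D10.4 (0.905), F44E5.4 (0.851) and dnj-13 (0.849). Of these, 4 encode chaperones or co-chaperones. C30C11.4, now named hsp-110, encodes the Hsp110 protein, which helps Hsp70 exchange its nucleotide. F44E5.4 and F44E5.5 are a closely related pair of heat-inducible Hsp70 genes whose probe sets may match both, and dnj-13 encodes a J-domain protein that delivers substrates to Hsp70. The other 2, T14G11.1 and F34D10.4, have no role assigned here. Of the 197 genes, 6 were on the heat shock list described below, and 2 of these reached 0.9 or more. The next gene, R107.5 at 0.838, was not on that list. The share of chaperones among all probe sets this alike is unknown, because only selected probe sets have names here.

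The likeness of some of these genes rested on all cells replicate 3. Without it F44E5.4 stood at 0.486, dnj-13 at 0.692 and F44E5.5 at 0.696, while T14G11.1 stood at 0.843, F34D10.4 at 0.872 and C30C11.4 at 0.936. Over the 4 DD arrays alone, where so few points leave the order of genes uncertain, the values were 0.958 for F44E5.5, 0.927 for F44E5.4, 0.910 for C30C11.4, 0.839 for F34D10.4, 0.793 for T14G11.1 and 0.528 for dnj-13. The genes vrk-1 (0.992), nhr-17 (0.986) and C43H6.1 (0.985), named after their values were seen, were then the most alike, and of the 6 genes above F44E5.5 ranked highest, at place 4 of 197. A likeness of 0.9 or more was reached by 4 of the 197 other named genes, or 2.03%, and by 185 of the 22544 other tested probe sets, or 0.821%. These 185 include the 4 named genes.

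The levels of the Hsp110 gene show the shared pattern on the probe set used for its likeness. C30C11.4 had 9.35, 10.04, 10.57 and 9.35 there in DD neurons, against 7.70, 8.70 and 6.77 in all cells, with DD replicates 2 and 3 and all cells replicate 2 high and all cells replicate 3 low. Its second probe set had a lower likeness, 0.841. That probe set read 7.34, 9.16 and 7.18 in all cells, so replicate 3 was close to replicate 1. The Hsp70-family gene F44E5.5 had 11.58, 12.604, 12.65 and 11.38 in DD neurons, against 9.39, 9.07 and 6.37 in all cells. It followed the family on the DD arrays, but its highest all-cell array was replicate 1 and not replicate 2.

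A list of 32 other gene names of the heat shock pathway covered further small heat shock proteins, Hsp70, Hsp90 and their partners, with the Hsp110 gene under both its older and its newer name. Of its genes 6 could be matched to a named probe set. All 6 were on the authors' list and so were higher by selection, with log2 differences of 1.45 to 3.78 and a median of 2.66, against a median of 3.12 for the 4 hsp-16 genes and 0.06 for all tested probe sets. In the limma fit 1 of the 6, F44E5.4, was called higher, beside 0.191% of all probe sets, and by their selection none could be lower. F44E5.5 differed by 3.78 ± 0.71 SE, F44E5.4 by 3.56 ± 0.54 SE and the heat-inducible Hsp70 gene hsp-70 by 3.21 ± 0.53 SE. C30C11.4 differed by 2.10 ± 0.48 SE, and by 1.97 ± 0.56 SE on its second probe set, which may match several transcripts. The gene dnj-13 differed by 1.71 ± 0.44 SE and the J-domain gene dnj-8 by 1.45 ± 0.24 SE. The differences of hsp-16.2, F44E5.4 and F44E5.5 thus lay within 1 SE of each other, below that of hsp-16.41.

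**Figure D4:**
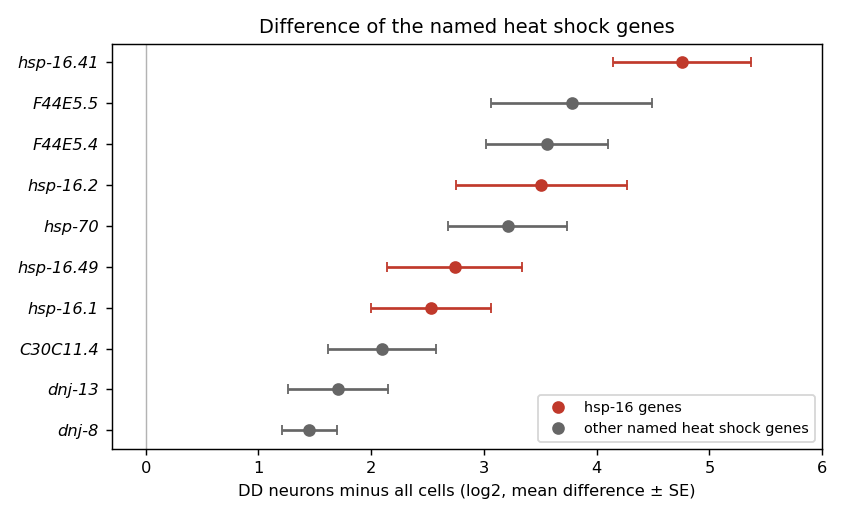
Log2 difference of DD neurons minus all cells with its SE for the 4 hsp-16 genes (red) and the 6 other named heat shock genes (grey), 1 probe set per gene. hsp-16.41 has the largest value, 4.76, and dnj-8 the smallest, 1.45, and all had been selected as higher.

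The other 2 named chaperone genes had a lower likeness over the 7 arrays. The gene hsp-70 had 6.37, 7.92, 8.68 and 6.77 in DD neurons, against 4.58, 3.87 and 4.22 in all cells. On the DD arrays replicates 2 and 3 were high, as for the hsp-16 genes, but its all-cell arrays spanned 0.71 only, with replicate 3 between the others. Its likeness was 0.378 over the 7 arrays and 0.950 over the 4 DD arrays alone. Its all-cell values lay at percentiles 29.8 to 39.4 of their arrays, and no background level is given for them. The gene dnj-8 had a likeness of -0.329 and spans of 0.39 over the DD arrays and 0.95 over the all-cell arrays.

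Lists of other stress responses could not be set beside the family. None of the 17 listed genes of endoplasmic reticulum stress, the 9 of mitochondrial stress, the 17 of oxidative, metal and osmotic stress and the 26 of the proteasome and ubiquitin had a named probe set.

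Other measures differed between the arrays too, and their part in the hsp-16 differences was not tested. Of 8 marker genes of D-type neurons 6 could be named (unc-25, unc-47, unc-46, unc-30, ttr-39 and oig-1), all selected as higher by the authors. They averaged 9.88, 9.27, 9.55 and 9.86 on DD replicates 1 to 4, against 6.54, 6.96 and 6.56 on all cells replicates 1 to 3 (log2). DD replicates 2 and 3, where the hsp-16 genes were high, had the lower marker means, but the markers differed on replicate 3. There unc-25 (11.46) and ttr-39 (11.62) had their highest DD level and unc-30 (9.65) and oig-1 (8.45) their lowest. The levels of unc-47 and unc-46 lay between those of other DD arrays. The 77 array controls averaged 5.85 ± 0.13 (SD, n = 4) for DD neurons and 5.49 ± 0.09 (SD, n = 3) for all cells. Among these controls, the 3' minus 5' probe sets of the catalase gene, a measure of RNA and amplification length, gave 0.64 ± 0.95 (SD, n = 4) for DD neurons and 2.69 ± 0.32 (SD, n = 3) for all cells. The same measure was 3.71 ± 0.26 in DD neurons and 4.05 ± 0.17 in all cells for ubiquitin, and -0.24 ± 0.15 in DD neurons and -0.04 ± 0.30 in all cells for Gapdh. For gly14 it was -1.96 ± 0.47 in DD neurons and -1.83 ± 0.13 in all cells, and for actin 0.02 ± 0.07 in DD neurons and 0.02 ± 0.12 in all cells. Of the marker lists of other tissues, 1 gene each of muscle (ttn-1, log2 difference 1.18), intestine (acdh-1, 1.86), epidermis (ptr-24, 1.03) and germ line (pgl-1, 1.07) could be named. These genes too had been selected as higher by the authors, so none of them could be lower. The other listed markers of these tissues have no named probe set, so the makeup of the sorted cells was not measured.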

How the data were processed

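RNA was hybridised to 7 Affymetrix C. elegans arrays, 1 per sample. The authors deposited log2 values made with RMA, per the submitters' processing notes. Its version is not given in the sources used here. A second deposited table lists 236 probe sets that the authors found higher in DD neurons, with a score, a fold change as a ratio, a log2 difference and a q-value in percent, per the file headers. Its gene names and sequence names were used, with its protein annotation of hsp-16.49. Of the gene names, 198 of 201 matched RefSeq by sequence name. Rows without a score were left out, and no value of the score, fold change, log2 difference or q-value was used.

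After 77 array controls were left out, 22548 probe sets were fitted with limma 3.58.1 (R 4.3.3, lmFit and eBayes) on all 7 arrays without covariates. The fit was run on simulated data with planted shifts and independent noise. This checked the code only, because the simulated arrays had no variation shared between probe sets. For the members the SE of the fit is given, and its call is stated beside the background without being used as evidence. The SE of a comparison between members is not from the fit. It was computed from the SD of their differences on the arrays of each group. Other values came from Python 3.11.15 with pandas 2.3.3 and numpy 2.4.6.

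The members, lists and tests were chosen with earlier results of these data known. The genes named are the members, all named genes of the heat shock list, the 6 genes most like the family and the named markers. Of several probe sets of a gene, one with the plain suffix was preferred, then the one with the highest mean. Alternatives were each array left out, the replicate number as a block, 3 other scalings, a floor, a filter on dim probe sets, controls kept and another variance model.

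Separate cultures are not stated for the samples of a group, so p-values cover the spread between arrays alone, and that spread may be technical. No 2 arrays were copies, with correlations of 0.936 to 0.974 across probe sets. The number of arrays limits the precision.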

Additional observations from a re-analysis of the deposited data

Results flagged for a closer look

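The 4 DD arrays of 19 probe sets, those of the hsp-16 genes, the other named heat shock genes, the genes most like the family and the D-type markers, were examined for a single distant array, where chance gives about 1 in 20. None of the 4 hsp-16 genes had one. The gene unc-25, the enzyme that makes GABA and a marker of these neurons, had one. Its log2 level was 10.84 on DD replicate 2 and 11.39 to 11.46 on the remaining DD arrays, a gap that took up a share of 0.893 of the range.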

How the results depend on the processing

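All 48 alternative values of the hsp-16 differences kept their direction and lay between 1.87 and 5.29 on the log2 scale. Each moved by less than 1 SD of the all-cell arrays, a wide limit at 1.18 to 1.79. Leaving out 1 array could not have turned a direction, because the groups did not overlap for any member. These values are thus no test of the direction. With 1 array left out the ranges were 4.13 to 5.29 for hsp-16.41, 2.63 to 4.42 for hsp-16.2, 1.96 to 3.26 for hsp-16.49 and 1.87 to 3.04 for hsp-16.1.

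The counts of limma calls over all probe sets, used only as background, were less stable. With 1 array left out they were 6 to 23 higher, against 43, and 0 to 39 lower, against 51. The 0 came without DD replicate 1, where 1779 were lower at an unadjusted p under 0.05. Restricted to probe sets above the median mean, 65 were higher and 93 lower. The lower count was 28 after median centring, 33 after quantile normalization and 393 after centring on the array controls, and the cause was not tested. With trend and robust variances it was 37, with 39 higher.

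Whether the replicate numbers mark pairs was left undecided, because weak correlations between deviations cannot exclude it. Same-numbered arrays had correlations of -0.005, 0.070 and 0.086 between their deviations, and not every array correlated best with its own number. With the number as a block, which leaves DD replicate 4 without a partner and without weight, limma called 2 higher and 0 lower (1444 and 2075 at an unadjusted p under 0.05). The hsp-16 differences were then 4.96, 3.57, 2.92 and 2.65 for hsp-16.41, hsp-16.2, hsp-16.49 and hsp-16.1.

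With no detection call or background level deposited, the signal over background of dim values, such as those of hsp-16.41 in all cells, is unknown.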
